A study of Mus with 6 samples.

Results

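Heat shock proteins, their cochaperones and the cytosolic chaperonin were examined in endothelial cells of the infarcted mouse heart with and without Ccl28. Genes were taken by symbol, as those named Hspa, Hspb or Hsf with a number, Hspd1, Hspe1, Hsph1, the Hsp90 genes, the numbered Dnaja, Dnajb and Dnajc genes, the Cct subunits with Tcp1, and the numbered Bag genes. This gave 88 of the 20893 genes measured. The rule reads symbols only, though it was set with earlier results of these data known. The data are RNA sequencing of cardiac microvascular endothelial cells, sorted on magnetic beads for CD31 and against CD45, from 3 libraries of Ccl28 knockout (KO) mice and 3 of wild-type (WT) mice, each group with replicate numbers 2, 3 and 4. Every animal, KO and WT alike, had its left coronary artery ligated, so no library of an unligated heart was analysed here. Strain, sex, age, the time after surgery and the construction of the KO allele are not given in the sources used here. In the genotype field, the KO libraries with replicate numbers 3 and 4 carry Ccl29-KO and Ccl30-KO in place of Ccl28-KO, and the titles, which all read Ccl28-KO, were followed. Nothing states that the libraries come from separate animals, so p-values measure how far these samples spread, and that spread may be technical only.

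Heat shock proteins are molecular chaperones, which bind unfolded proteins and help them to fold. HSP70 proteins (Hspa genes) work in cycles of ATP hydrolysis that J-domain proteins (Dnaj genes) start and BAG proteins help to end, HSP90 proteins take over clients such as kinases and receptors, and the ring-shaped chaperonin TRiC folds actin and tubulin. Some members are made at all times, and others are switched on by the transcription factor HSF1 under heat or other protein stress. The endoplasmic reticulum (ER) and the mitochondrion have chaperone sets of their own, and the ER set is induced by the unfolded protein response.

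The libraries held between 36004457 and 40500067 reads assigned to genes. Ccl28 was examined first, as a check of the labels. It had 0 reads in each of the 3 KO libraries, against 16, 11 and 24 reads in WT replicates 2, 3 and 4. Counting a KO library as 3 reads at most, KO was at least 5.28-fold lower. A two-sided exact permutation test of its FPKM gave p = 0.1, the smallest value that 3 against 3 libraries allow. Of the genes behind the sort, Pecam1, the CD31 gene, averaged 610.8 ± 45.1 FPKM in KO and 704.7 ± 35.9 FPKM in WT (SD, n = 3 each), while Ptprc, the CD45 gene, averaged 1.16 ± 0.213 FPKM in KO and 1.23 ± 0.438 FPKM in WT. Levels are FPKM, fragment counts scaled to transcript length and library size, which can be compared between genes of different length. Each log2 fold change sets KO over WT in values of log2(FPKM + 1), a scale that understates changes of low genes. A change was called at an adjusted p under 0.05 in limma, with all 10806 genes tested that reached an FPKM of 1 in 3 or more libraries.

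Hsp90ab1, Hspa8 and Hspb1 were the most abundant members by length-corrected level, with means over the 6 libraries of 774.5, 545.2 and 236.3 FPKM. These 3 genes made up 38.2% to 39.9% of the summed FPKM of all 88 members in every library. The sum itself ran between 3804 and 4101 FPKM in KO libraries and between 3631 and 4342 FPKM in WT libraries, so the groups overlapped. In all, 9 members averaged at least 100 FPKM and 50 at least 10 FPKM. Of the 88 members, 74 passed the filter on low values and were tested. The other 14 averaged 0.00615 to 1.04 FPKM and never passed 1.54 FPKM in a library, among them the transcription factor genes Hsf2, Hsf3, Hsf4 and Hsf5 and the genes Hspa1l, Hspb3, Hspb9 and Dnajb13.

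The largest difference was in the stress-inducible HSP70 genes Hspa1a and Hspa1b, which were 3.93-fold and 3.34-fold lower in KO. Around them, several ER chaperone genes were lower in KO by smaller factors, several small mitochondrial J-domain genes were higher, and the abundant constitutive genes Hspa8 and Hsp90ab1 and most TRiC subunits were not called, though Hspa8 and Hsp90ab1 were called lower with quantile normalization. Of the 74 tested members, 27 (36.5%) were called, 11 higher (14.9%) and 16 lower (21.6%), against 44.2% of all tested genes called, 18.3% higher and 25.8% lower. The members' shares were near those of all genes. The 11 higher members were 1.16-fold to 1.62-fold up, none of them by 1 on the log2 scale. Apart from Hspa1a and Hspa1b, the 14 other lower members fell 1.19-fold to 1.72-fold. The KO values lay all above the WT values for 15 of the 74 tested members and all below for 15, against 22.8% and 31.9% of all tested genes. The median log2 fold change was -0.02 over the members and -0.03 over all tested genes.

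**Figure D1:**
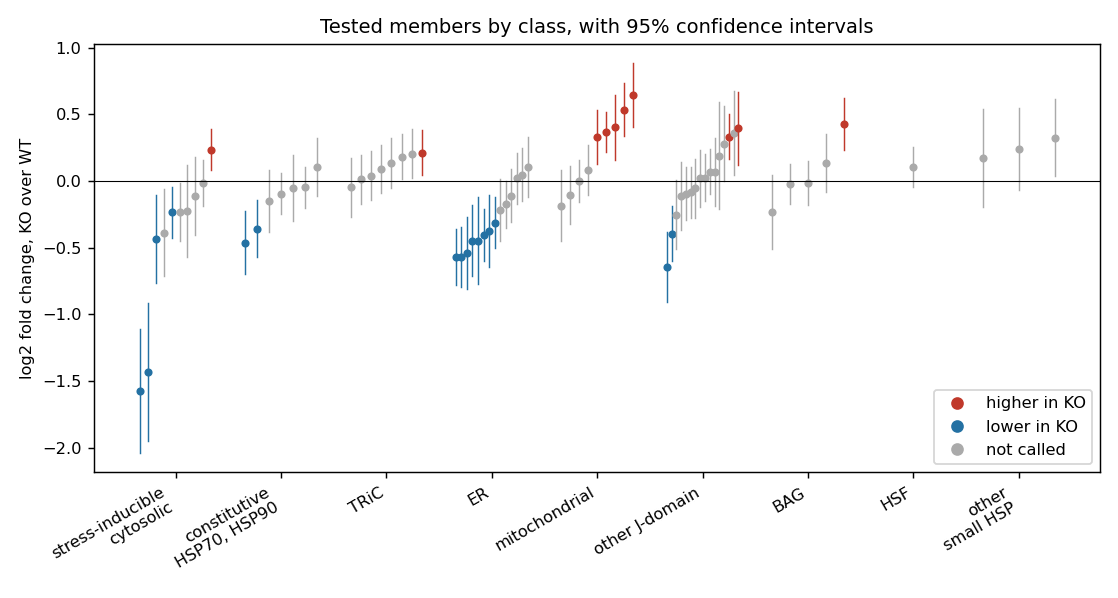
Log2 fold change (KO over WT, y axis) of the tested members in 9 classes along the x axis, with bars for the 95% confidence interval of the limma fit and colour for the call. Hspa1a and Hspa1b lie near -1.5, 8 of 14 ER members are called lower and 5 of 9 mitochondrial members higher. Of all tested genes 25.8% are called lower and 18.3% higher. Hspb11, which is in no class, is not drawn.

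Transcript length went with the direction of change across the whole data set, and the members followed it. Over all 10806 tested genes Spearman's rho between implied transcript length and log2 fold change was -0.72, and over the 74 members it was -0.71. Both are descriptions across genes, which share the same 6 libraries and are not replicates. The 11 members that rose had a median length of 1198 nt, the 16 that fell 4682 nt and the 47 without a call 2655 nt. Among the 13 members with transcripts of up to 1791 nt, 8 rose and none fell in limma, close to the 59.8% higher and 1.57% lower of all genes of that length. Among the 8 members of 6229 nt or more, 4 fell and none rose, where 66.2% of all genes of that length fell. Genotype and the length trend cannot be told apart in these libraries, so results are also given after a length trend was removed from every library. With that removal 9 members were called, 2 higher (2.70%) and 7 lower (9.46%), against 18.7% of all tested genes, 9.25% higher and 9.42% lower.

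**Figure D2:**
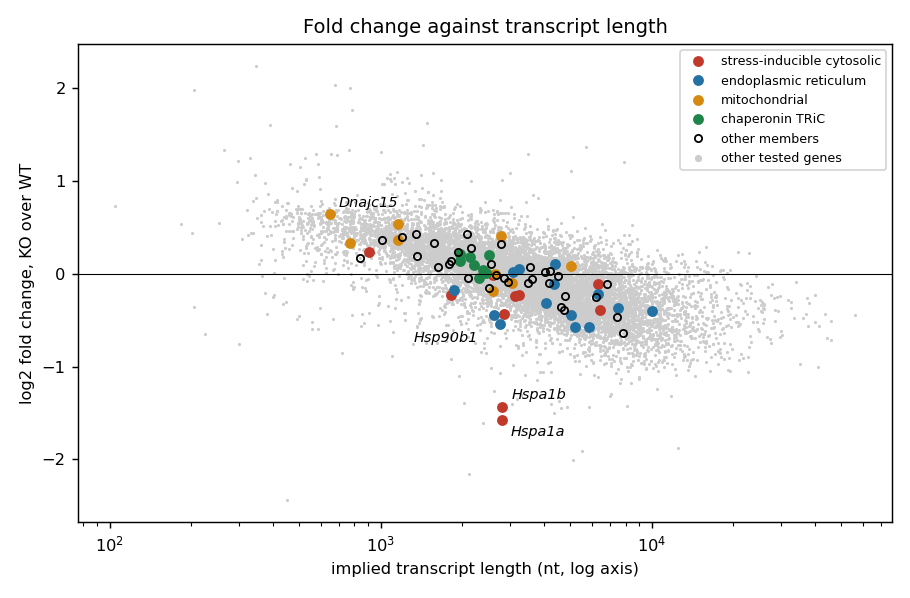
Log2 fold change (KO over WT, y axis) against implied transcript length in nt (log x axis) for all tested genes (grey) and the members (coloured by class). The members follow the falling band of all genes, with Hspa1a and Hspa1b far below genes of similar length (2798 and 2810 nt).

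Stress-inducible cytosolic members are those that HSF1 is known to raise under stress. Hspa1a, which encodes an HSP70 that is scarce in unstressed cells, had 1.63, 3.00 and 1.36 FPKM in KO replicates 2, 3 and 4, against 6.57, 6.66 and 10.3 FPKM in WT replicates 2, 3 and 4. Every KO library lay below every WT library, and WT replicate 4 stood highest. The log2 fold change was -1.57 (SE 0.21, adjusted p = 0.000639). Its neighbour Hspa1b, which encodes an almost identical protein, had 3.35, 3.83 and 2.16 FPKM in KO, against 7.18, 9.0 and 14.95 FPKM in WT replicates 2, 3 and 4. Its groups were apart as well, again with WT replicate 4 highest and KO replicate 4 lowest, and its log2 fold change was -1.43 (SE 0.23, adjusted p = 0.00128). Among the 10806 tested genes ordered by log2 fold change, Hspa1a was number 8 and Hspa1b number 13 from the lowest.

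Hspa1b and Hspa1a lie next to each other on chromosome 17 (GRCm38), at 34956429 to 34959238 and 34969359 to 34972156, 10120 bp apart. Their annotated spans of 2810 and 2798 bp equal their implied transcript lengths, so both are without introns in this annotation. Because the copies are near-identical, reads may have been split between them in counting, and their sum is the safer measure. The sum was 4.98, 6.83 and 3.52 FPKM in KO libraries (528, 712 and 355 reads), against 13.75, 15.7 and 25.2 FPKM in WT libraries (1562, 1718 and 2790 reads). The summed level was therefore 3.57-fold lower in KO, and the highest KO library had less than the lowest WT library. Hspa1l, the testis member of the same cluster, stayed at 0.0115 to 0.412 FPKM in the KO libraries and 0.164 to 0.304 FPKM in the WT libraries and was not tested.

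The calls of Hspa1a and Hspa1b held in all 14 alternative settings run. Without WT replicate 4 the log2 fold changes were -1.39 and -1.16, and with the length trend removed they were -1.61 (adjusted p = 0.00392) and -1.47 (adjusted p = 0.00697). In the authors' deposited table the log2 fold changes were -1.90 for Hspa1a (q = 1.14e-12) and -1.67 for Hspa1b (q = 0.000183). That table held 86 of the members, 16 higher and 17 lower at q under 0.05, and differed from the calls here in some. Tcp1, Cct5, Hspb7, Dnajc2 and Dnajc17 were higher there, and Hsph1 and Hspa4l lower, all without a call here. Dnaja4, called lower here, had q = 0.187 there.

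**Figure D3:**
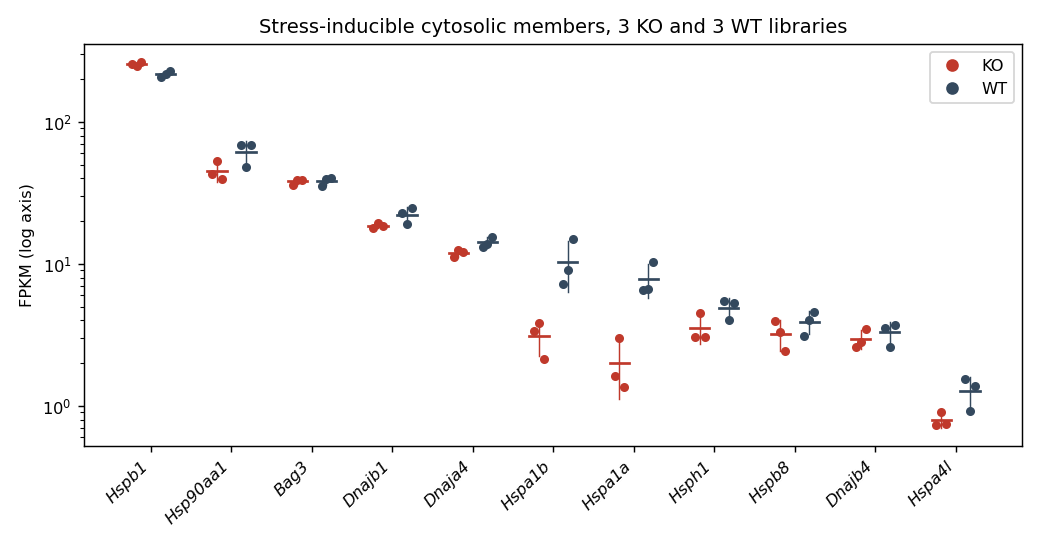
FPKM (log y axis) of the 11 stress-inducible cytosolic members in each library, KO left of WT, with the mean as a horizontal line and the SD as a vertical line (n = 3 each). Hspa1a, Hspa1b, Dnaja4 and Hspa4l have all KO libraries below all WT libraries, and Hspb1 has all KO libraries above.

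The other inducible members differed less. Hsp90aa1, the inducible cytosolic HSP90, had 42.8, 53.3 and 39.5 FPKM in KO, against 68.4, 48.0 and 68.9 FPKM in WT replicates 2, 3 and 4. The groups overlapped, since KO replicate 3 was above WT replicate 3, and the call (log2 fold change -0.44, SE 0.15, adjusted p = 0.0376) was lost in 7 of 14 settings. Dnaja4, an HSF1-responsive J-domain gene, fell to 11.9 ± 0.688 FPKM in KO, against 14.2 ± 1.17 FPKM in WT (adjusted p = 0.048), a call lost in 10 of 14 settings. Hspb1, which encodes the small heat shock protein HSP27 (HSP25 in mouse) and is abundant in endothelium, was the one inducible member that rose, with 255.5 ± 7.75 FPKM in KO and 217.0 ± 10.1 FPKM in WT (adjusted p = 0.0208). Its transcript is 903 nt long, and removal of the length trend turned the log2 fold change to -0.19 (adjusted p = 0.0957). So 4 of 10 tested inducible members fell and 1 rose, against 25.8% of all tested genes lower and 18.3% higher. The median log2 fold change of the 10 was -0.23. After removal of the length trend, Hspa1a and Hspa1b alone of these 10 were called, both lower, against 9.42% of all tested genes lower. The count of 4 lower members fell to 2 without KO replicate 2, without KO replicate 4 or without WT replicate 4. It was also 2 with the replicate block and without an expression filter. With median-ratio scaling, with quantile normalization or without WT replicate 2 it was 3. It was 5 without WT replicate 3 and in limma on the recovered reads.

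Of the inducible members without a call, Hsph1, the HSP110 that exchanges nucleotide on HSP70, averaged 3.56 ± 0.839 FPKM in KO and 4.93 ± 0.811 FPKM in WT (log2 fold change -0.39, 95% confidence interval -0.71 to -0.06, adjusted p = 0.0554). Dnajb1, the main J-domain partner of inducible HSP70, averaged 18.6 ± 0.727 FPKM in KO and 22.15 ± 2.90 FPKM in WT (adjusted p = 0.0783). Bag3, which links HSP70 to selective autophagy, was close to equal at 38.1 ± 1.92 FPKM in KO and 38.5 ± 2.77 FPKM in WT (95% confidence interval of the log2 fold change -0.19 to 0.16). Dnajb4, another J-domain gene, and Hspb8, whose small heat shock protein acts with BAG3, had log2 fold changes of -0.11 and -0.22 with overlapping groups. Hspa4l, a relative of HSP110, had 0.736 to 0.901 FPKM in KO and 0.9225 to 1.54 FPKM in WT, and it did not pass the filter. Hsf1, the gene of the transcription factor itself, was slightly higher in all KO libraries, with 22.65 ± 0.790 FPKM in KO and 21.0 ± 0.251 FPKM in WT, and was not called (log2 fold change 0.11, adjusted p = 0.229). HSF1 is controlled mostly at the protein level, which was not measured.

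Immediate early genes, the first transcripts that cells make after a stimulus, were mostly lower in KO as well. Of 10 such genes, Fos, Jun and Egr1 among them, 8 fell and none rose in limma, against 25.8% of all tested genes lower. Their summed level was 353.7 to 385.0 FPKM in KO libraries and 606.2 to 692.8 FPKM in WT libraries, none of them at 0 in a library. WT replicate 4, the library with most Hspa1a and Hspa1b, also had the highest immediate early sum. Among KO libraries, replicate 3 was highest in both. KO replicate 2 had more Hspa1a plus Hspa1b than KO replicate 4 (4.98 and 3.52 FPKM) but the lower immediate early sum (353.7 and 366.6 FPKM). The part of the immediate early difference in the HSP70 result was not tested.

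Of the constitutive cytosolic HSP70 and HSP90 members, the most abundant, Hspa8 and Hsp90ab1, were not called. Hspa8, the everyday HSP70 known as HSC70, had 515.1, 583.5 and 505.1 FPKM in KO, against 590.9, 468.2 and 608.4 FPKM in WT. The groups overlapped, and the log2 fold change of -0.05 had a 95% confidence interval of -0.30 to 0.20. Hsp90ab1, the constitutive HSP90, averaged 732.5 ± 41.6 FPKM in KO and 816.4 ± 107.4 FPKM in WT (log2 fold change -0.15, adjusted p = 0.272). Hspa4, an HSP110 type exchange factor, fell to 29.3 ± 1.28 FPKM in KO, against 38.0 ± 4.94 FPKM in WT (adjusted p = 0.0146). Hspa12a, an atypical HSP70, fell to 1.09 ± 0.150 FPKM in KO, against 1.88 ± 0.166 FPKM in WT (adjusted p = 0.0064). Both fell without overlap, have long transcripts (4640 and 7448 nt) and lost the call on removal of the length trend (adjusted p = 0.143 and 0.387). Hspa12b, the relative of Hspa12a that is enriched in endothelium, averaged 114.3 ± 3.37 FPKM in KO and 122.2 ± 6.72 FPKM in WT without a call, and Hspa2 and Hspa14 had log2 fold changes of -0.05 and 0.11. Against 25.8% of all tested genes lower and 18.3% higher, 2 of 7 tested constitutive members fell and none rose in limma. This depended on the scaling of the libraries: with quantile normalization 5 of 7 fell, among them Hsp90ab1 (log2 fold change -0.60, adjusted p = 0.00457), Hspa8 (-0.42, adjusted p = 0.0159) and Hspa12b (-0.26, adjusted p = 0.0236), while with median-ratio scaling Hspa8 was at 0.002 (adjusted p = 0.989).

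Ratios of FPKM within a library do not change when the whole library is multiplied by a factor. Quantile normalization is not such a scaling and changes them. With it the log2 fold changes of Hsp90b1 and Hsp90ab1 were -0.71 and -0.60, against -0.54 and -0.15 in the main fit. Those of Hspa5 and Hspa8 were -0.61 and -0.42, against -0.45 and -0.05. The pairs below were chosen after the levels were seen, so they are given as a description. The level of Hspa1a plus Hspa1b was 0.967%, 1.17% and 0.696% of that of Hspa8 in KO replicates 2, 3 and 4, against 2.33%, 3.345% and 4.145% in WT replicates 2, 3 and 4. The inducible share was thus lower in every KO library than in any WT library. Hsp90aa1 stood at 5.68% to 6.86% of Hsp90ab1 in KO and 6.82% to 8.34% in WT, with KO replicate 3 inside the WT range.

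**Figure D4:**
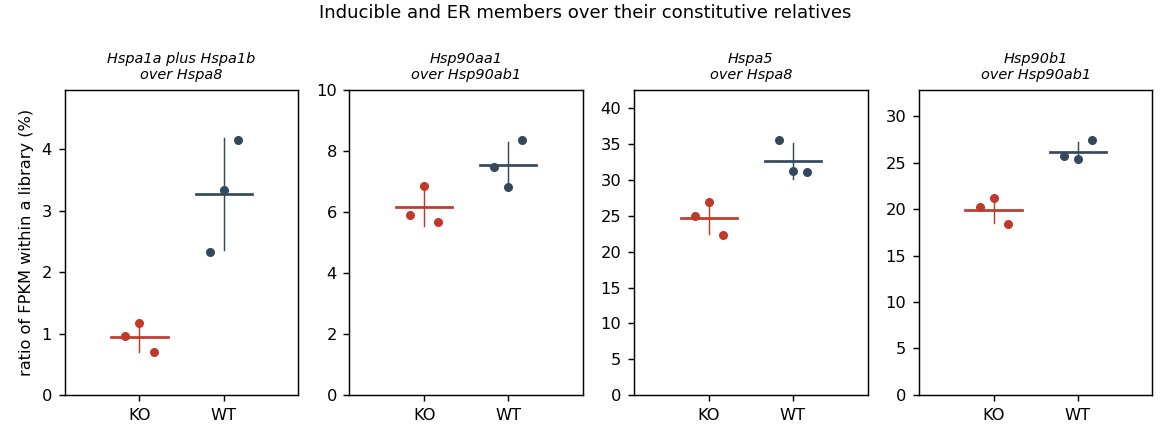
Ratio of FPKM between relatives within each library, in percent (y axes from 0, each panel with its own scale), KO left of WT, with the mean as a horizontal line and the SD as a vertical line (n = 3 each). The ratios of Hspa1a plus Hspa1b to Hspa8, Hspa5 to Hspa8 and Hsp90b1 to Hsp90ab1 are lower in all KO libraries than in all WT libraries, and the ratio of Hsp90aa1 to Hsp90ab1 overlaps.

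ER members were the class with most members lower in KO. Of 14, all tested, 8 fell and none rose in limma, against 25.8% of all tested genes lower and 18.3% higher. The median log2 fold change of the 14 was -0.34. Their median transcript length was 4373 nt, and of all tested genes of 4128 to 6229 nt 40.8% fell. Hsp90b1, the ER HSP90 known as GRP94, had 146.9, 164.5 and 128.1 FPKM in KO, against 236.1, 178.5 and 226.3 FPKM in WT replicates 2, 3 and 4. All KO libraries were below all WT libraries, with WT replicate 3 the nearest, and the log2 fold change was -0.54 (SE 0.12, adjusted p = 0.00612). Hspa5, the ER HSP70 known as BiP and the sensor partner of the unfolded protein response, had 128.6, 157.3 and 112.8 FPKM in KO, against 209.9, 146.3 and 189.7 FPKM in WT. Here KO replicate 3 was above WT replicate 3, and the call (log2 fold change -0.45, SE 0.15, adjusted p = 0.0317) was lost in 6 of 14 settings. Set against the cytosolic relatives, Hsp90b1 was 18.4% to 21.2% of Hsp90ab1 in KO and 25.3% to 27.4% in WT, and Hspa5 was 22.3% to 27.0% of Hspa8 in KO and 31.2% to 35.5% in WT. Neither of these ratios overlapped between genotypes.

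Among ER J-domain genes, Dnajc3, whose protein p58IPK serves BiP and restrains the kinase PERK, fell to 16.1, 15.95 and 13.6 FPKM in KO, against 25.05, 20.8 and 23.5 FPKM in WT. Its log2 fold change was -0.57 (SE 0.09, adjusted p = 0.0014), and the call held in all 14 settings. Dnajc16 fell to 3.24, 2.79 and 2.59 FPKM in KO, against 4.61, 4.50 and 5.12 FPKM in WT (log2 fold change -0.57, SE 0.10, adjusted p = 0.00189), and its call held in all 13 settings in which it was tested. Hspa13, an ER-linked HSP70, and Dnajc10, a disulfide reductase that acts in ER-associated degradation, fell 1.53-fold and 1.25-fold. Dnajc1 and Dnajb14 fell 1.43-fold and 1.55-fold, and both have long transcripts (10036 and 7489 nt). Of the 6 ER members without a call, Dnajb11, a secreted cofactor of BiP, averaged 37.5 ± 1.29 FPKM in KO and 36.3 ± 4.19 FPKM in WT, and Dnajb12, Dnajc14, Dnajc18 and Dnajc25 had log2 fold changes of -0.22 to 0.10. Dnajb9, which is strongly induced by the unfolded protein response, had 14.8, 13.9 and 16.2 FPKM in KO, against 17.3, 16.3 and 17.45 FPKM in WT, without overlap and without a call (adjusted p = 0.103).

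With the length trend removed 5 ER members were lower, Hsp90b1 (log2 fold change -0.58, adjusted p = 0.0108), Hspa5 (-0.51, adjusted p = 0.0367), Dnajc3 (-0.35, adjusted p = 0.0165), Dnajc16 (-0.31, adjusted p = 0.0376) and Dnajb9 (-0.36, adjusted p = 0.00931). The share of all tested genes lower with that removal was 9.42%. The calls of Hspa13, Dnajc10, Dnajc1 and Dnajb14 were lost, and the log2 fold change of Dnajc1 became 0.008. Without KO replicate 4, 5 ER members were lower in place of 8, and without an expression filter 4 were. With a filter of 5 FPKM 8 ER members were tested, of which 4 were lower. In the main fit 25.8% of all tested genes were lower.

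**Figure D5:**
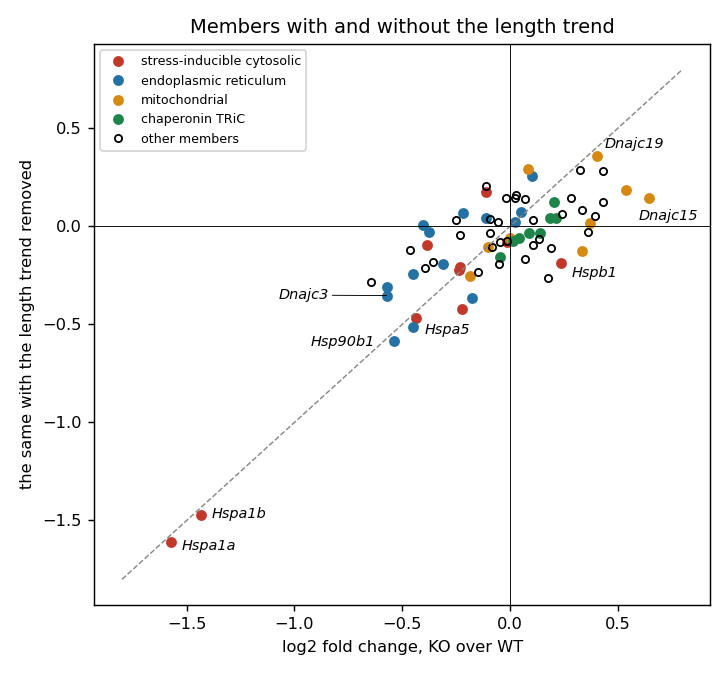
Log2 fold change (KO over WT) of the 74 tested members as fitted (x axis) and with the length trend removed from each library (y axis), with equality as a dashed line. Hspa1a, Hspa1b, Hsp90b1 and Hspa5 lie near the line, while Dnajc15 and other short mitochondrial members drop towards 0 and Hspb1 falls below 0 on the y axis.

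ER partner genes outside the members moved in part in the same direction. Of 12 such genes, all tested, 3 fell and none rose in limma, and with the length trend removed 6 fell and 1 rose, against the background shares above. Hyou1, an ER HSP110 that serves BiP, fell to 17.1 ± 3.28 FPKM in KO, against 28.8 ± 4.95 FPKM in WT (log2 fold change -0.72, adjusted p = 0.00421). Canx, the membrane-bound lectin chaperone calnexin, fell to 56.9 ± 6.61 FPKM in KO, against 82.4 ± 8.47 FPKM in WT (adjusted p = 0.00302), and Pdia4, a protein disulfide isomerase, fell to 39.5 ± 3.39 FPKM in KO, against 49.55 ± 7.39 FPKM in WT (adjusted p = 0.0447). The list's median log2 fold change was -0.11, and -0.34 after removal of the length trend.

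Mitochondrial members with a call were all higher in KO. They were 4 J-domain genes and Hspe1, while Hspd1, Hspa9, Dnaja3 and Dnajc11 had no call. Of 9 tested, 5 rose and none fell in limma, with a median log2 fold change of 0.33, against 18.3% of all tested genes higher. Of the 5, 4 have transcripts of up to 1791 nt, a length at which 59.8% of all tested genes rose. Dnajc15, a J-domain protein of the inner membrane import motor, had 27.2, 23.0 and 28.2 FPKM in KO, against 18.8, 15.5 and 14.8 FPKM in WT (log2 fold change 0.65, SE 0.11, adjusted p = 0.00144). Dnajc4 had 20.7, 19.8 and 22.2 FPKM in KO, against 15.7, 13.9 and 12.8 FPKM in WT (log2 fold change 0.54, SE 0.09, adjusted p = 0.00148). In both genes every KO library lay above every WT library. Dnajc19, a relative of Dnajc15 in the same import motor, rose 1.38-fold (adjusted p = 0.014), and Dnajc30, a single-exon gene whose protein acts with complex I, rose 1.31-fold (adjusted p = 0.00243).

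The transcripts of Dnajc15, Hspe1, Dnajc30 and Dnajc4 are 648 to 1162 nt long, and none of the 4 was called with the length trend removed. Dnajc19, at 2771 nt, was still higher (log2 fold change 0.36, adjusted p = 0.036), as was Dnajc11, an outer membrane J-domain gene of 5044 nt that had no call before (0.29, adjusted p = 0.0237). Reads of genes encoded in the mitochondrial DNA itself took 10.5%, 11.98% and 12.7% of the KO libraries and 6.03%, 10.8% and 7.86% of the WT libraries.

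The matrix chaperonin pair split. Hspe1, the cochaperonin HSP10, rose to 72.3, 89.1 and 85.1 FPKM in KO, against 69.8, 62.9 and 61.9 FPKM in WT (log2 fold change 0.33, SE 0.09, adjusted p = 0.0144). Hspd1, the chaperonin HSP60 that HSP10 caps, had 38.7, 45.5 and 37.1 FPKM in KO, against 52.3, 38.1 and 48.4 FPKM in WT (log2 fold change -0.18, 95% confidence interval -0.45 to 0.08). These genes lie head to head on chromosome 1, with annotated spans that overlap by 96 bp, where reads could be assigned to either. The ratio of Hspe1 to Hspd1 was 187.0%, 195.8% and 229.6% in KO and 133.3%, 165.0% and 127.8% in WT, and with transcripts of 768 and 2588 nt the pair differs in length. With the length trend removed the log2 fold changes were -0.13 for Hspe1 and -0.25 for Hspd1, without a call. Hspa9, the matrix HSP70 known as mortalin, averaged 63.4 ± 3.98 FPKM in KO and 68.4 ± 8.79 FPKM in WT (adjusted p = 0.423), and its J-domain partner gene Dnaja3 averaged 19.2 FPKM in both genotypes (95% confidence interval of the log2 fold change -0.16 to 0.16).

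Partner genes of mitochondrial protein quality control gave 3 higher and 1 lower of 11, all tested. The shares over all tested genes were 18.3% higher and 25.8% lower. Clpp, a matrix protease subunit, rose to 34.5 ± 0.362 FPKM in KO, against 23.3 ± 0.703 FPKM in WT (log2 fold change 0.54, adjusted p = 0.000523), and Grpel1, the nucleotide exchange factor of mortalin, rose to 21.0 ± 2.37 FPKM in KO, against 15.95 ± 1.56 FPKM in WT (adjusted p = 0.0135). Both were still higher with the length trend removed (adjusted p = 0.0394 and 0.0171). Yme1l1, an inner membrane protease, fell to 14.45 ± 0.736 FPKM in KO, against 19.1 ± 1.53 FPKM in WT (adjusted p = 0.00551).

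TRiC subunits were expressed at similar levels to each other and were little changed. The 8 tested subunits averaged 66.45 to 121.0 FPKM in KO and 64.75 to 106.5 FPKM in WT, and Cct6b, a testis form, averaged 0.073 FPKM in KO and 0.0382 FPKM in WT. Cct4 alone was called, with 97.9 ± 3.80 FPKM in KO and 84.5 ± 6.49 FPKM in WT (log2 fold change 0.21, adjusted p = 0.0454), and the call was lost in 9 of 14 settings. Among all tested genes 18.3% were higher and 25.8% lower. Tcp1 and Cct5 had all KO libraries above all WT libraries without a call (log2 fold changes 0.21 and 0.18). Cct3, Cct2 and Cct8 had log2 fold changes of 0.14, 0.09 and 0.04 with overlapping groups, and Cct6a and Cct7 of -0.05 and 0.01. With median-ratio scaling of the libraries 3 subunits were higher, and with the length trend removed none was called, and the median log2 fold change of the subunits was -0.03, against 0.11 before and -0.01 with quantile normalization. Of 12 genes of prefoldin and other partners of TRiC, 9 rose, 1 fell and 2 were not called. Pfdn5, a prefoldin subunit, rose to 372.6 ± 39.4 FPKM in KO, against 234.2 ± 23.3 FPKM in WT (adjusted p = 0.001), Pdcd5, a prefoldin relative, to 41.4 ± 4.34 FPKM in KO, against 27.6 ± 0.809 FPKM in WT (adjusted p = 0.000907), and the tubulin cofactor gene Tbca 1.55-fold. The 1 that fell was Pdcl, a phosducin-like TRiC partner (log2 fold change -0.34, adjusted p = 0.0109). The median length of the 12 was 1227 nt, where 59.8% of all tested genes of up to 1791 nt rose, and with the length trend removed 1 of the 12 was higher and 1 lower. With that removal 9.25% of all tested genes were higher and 9.42% lower.

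Of the 16 tested J-domain genes of the cytosol and nucleus or with other roles, 2 rose and 2 fell. Of all tested genes 18.3% rose and 25.8% fell. Dnajc8, a spliceosome-associated gene, rose to 105.1 ± 6.99 FPKM in KO, against 83.2 ± 4.52 FPKM in WT (adjusted p = 0.00635), and Dnajc24, needed for diphthamide synthesis, rose 1.35-fold (adjusted p = 0.0257). Dnajc13, an endosomal sorting gene, fell to 4.89, 5.76 and 4.07 FPKM in KO, against 8.89, 7.41 and 8.26 FPKM in WT (log2 fold change -0.64, SE 0.12, adjusted p = 0.00231). Dnajc5, which encodes the synaptic and secretory vesicle chaperone CSP alpha, fell to 20.5 ± 2.57 FPKM in KO, against 27.1 ± 0.723 FPKM in WT (adjusted p = 0.008). None of the 16 was called with the length trend removed. The major cytosolic HSP70 partners Dnaja1 and Dnaja2 had log2 fold changes of -0.05 and -0.08, with 95% confidence intervals of -0.28 to 0.17 and -0.28 to 0.11. Dnajc2, which assists folding at the ribosome, and Dnajc27 had log2 fold changes of 0.28 and -0.25 without a call (adjusted p = 0.0942 and 0.103). Dnajc17 averaged 17.5 ± 3.90 FPKM in KO and 13.2 ± 0.971 FPKM in WT, with 13.3 FPKM in KO replicate 3 inside the WT range, and was not called (adjusted p = 0.06).

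In the BAG family, Bag1, an exchange factor that ties HSP70 to the proteasome, was the one of 5 called. It rose to 137.4, 137.7 and 151.6 FPKM in KO, against 117.7, 96.2 and 102.6 FPKM in WT (log2 fold change 0.43, SE 0.09, adjusted p = 0.00371), and after removal of the length trend (its transcript has 1349 nt) the value was 0.125 (adjusted p = 0.2). Bag5 and Bag6 had log2 fold changes of -0.01 and -0.02, and Bag2 and Bag4 of 0.14 and -0.23, without a call. Hspb11, which the symbol places here although it encodes the intraflagellar transport protein IFT25, rose 1.62-fold (adjusted p = 0.0274). Hsf2bp, matched in the same way, stayed under 0.145 FPKM in every library.

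The small heat shock protein genes typical of heart and skeletal muscle were present at low levels. Hspb7 averaged 8.46 ± 1.34 FPKM in KO and 6.53 ± 0.962 FPKM in WT, Hspb6 7.29 ± 0.739 FPKM in KO and 6.09 ± 1.29 FPKM in WT, and Hspb2 3.67 ± 0.718 FPKM in KO and 3.16 ± 0.831 FPKM in WT. The groups overlapped in all 3 genes and none was called (adjusted p = 0.0635, 0.185 and 0.411), though Hspb7 was called higher with quantile normalization (adjusted p = 0.0269) and with median-ratio scaling (adjusted p = 0.0459). WT replicate 2 was the lowest of the 6 libraries for each of them. The 14 cardiomyocyte markers summed to 293.0 to 354.0 FPKM in KO libraries and 212.9 to 310.6 FPKM in WT libraries, with WT replicate 2 again lowest and none of the markers at 0. Of 12 tested, 2 rose and 1 fell, against 18.3% of all tested genes higher and 25.8% lower. The part of carried-over cardiomyocytes in the small heat shock protein levels was not tested. In such bulk samples fewer cells of a type and less RNA per cell cannot be told apart. Cryab, another small heat shock gene and a lens and muscle protein, rose to 13.8 ± 1.34 FPKM in KO, against 10.5 ± 1.11 FPKM in WT (adjusted p = 0.0142), and lost its call on removal of the length trend (adjusted p = 0.18). The annotated span of Cryab covers that of Hspb2, so their reads can be confused where strand was not used in counting.

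Of 19 tested HSP70 and HSP90 cochaperones 4 rose and none fell in limma, led by Stub1, the ubiquitin ligase CHIP (114.4 ± 2.51 FPKM in KO, 89.5 ± 2.95 FPKM in WT, adjusted p = 0.00226), Sgta (adjusted p = 0.0142) and Cdc37, the kinase-specific HSP90 cochaperone (adjusted p = 0.0258). The HSF1-responsive HSP90 cochaperone genes Stip1, Ahsa1 and Chordc1, named after their values were seen, had log2 fold changes of -0.01, 0.07 and -0.12 without a call. Of all tested genes 18.3% rose. After removal of the length trend Stub1 and Cdc37 had log2 fold changes of 0.02 and 0.01 (adjusted p = 0.868 and 0.93), and 2 of the 19 were higher. With the replicate block 1 of the 19 was higher. Of 8 other heat-inducible or HSF1-linked genes 4 rose and none fell in limma, namely Cryab, Hsbp1, the HSF1-binding protein gene (110.9 ± 3.62 FPKM in KO, 82.1 ± 4.97 FPKM in WT, adjusted p = 0.00135), the ubiquitin gene Ubb (adjusted p = 0.00612) and the haem oxygenase gene Hmox1 (69.4 ± 14.75 FPKM in KO, 42.7 ± 8.40 FPKM in WT, adjusted p = 0.00911). None of these 4 was called with the length trend removed. Vcp, an unfolding ATPase gene named after its values were seen, had a log2 fold change of -0.22 without a call (adjusted p = 0.0674). Sqstm1, the autophagy receptor p62 gene, had a call after that removal (log2 fold change 0.355, adjusted p = 0.00617).

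Libraries of 1 genotype differed in ways that touch several members at a time. In WT replicate 3, 14 of 74 tested members lay above the mean of the other WT libraries on the log2 scale, with a median deviation of -0.17 against -0.07 for all tested genes, and all 8 tested TRiC subunits and all 9 tested mitochondrial members lay below. In WT replicate 4 all 10 tested inducible members lay above the mean of the other WT libraries, with a median deviation of 0.23 against 0.02 for all tested genes. In KO replicate 3 all 8 tested TRiC subunits and 8 of 10 inducible members lay above the mean of the other KO libraries. Several lists of markers of other cell types moved with genotype. For the counts that follow, 18.3% of all tested genes rose and 25.8% fell. The 12 monocyte and macrophage markers summed to 230.4 to 355.2 FPKM in KO and 95.1 to 232.9 FPKM in WT (7 rose, none fell in limma) and the 11 neutrophil and lymphocyte markers to 56.7 to 81.9 FPKM in KO and 24.1 to 27.3 FPKM in WT (6 of 6 tested rose). Of 6 tested erythroid and platelet markers 4 rose and none fell in limma, among them the platelet genes Pf4, with 59.55 ± 11.4 FPKM in KO and 26.3 ± 9.25 FPKM in WT (adjusted p = 0.0026), and Ppbp, with 19.9 ± 2.09 FPKM in KO and 9.41 ± 2.11 FPKM in WT (adjusted p = 0.000785). Mural cell markers summed to 361.6 to 567.8 FPKM in KO and 476.0 to 622.9 FPKM in WT (7 of 10 fell), fibroblast markers to 13.3 to 16.45 FPKM in KO and 27.35 to 31.9 FPKM in WT (6 of 6 tested fell), and the 12 pan-endothelial markers to 4504 to 4900 FPKM in KO and 4849 to 4974 FPKM in WT (2 rose, 5 fell). With the length trend removed, 2 monocyte and macrophage, 6 neutrophil and lymphocyte and 1 of the erythroid and platelet markers were higher. On the other side 6 mural, 5 fibroblast and 3 pan-endothelial markers were lower. The shares of all tested genes with that removal were 9.25% higher and 9.42% lower. The part of these cell types in the chaperone results was not tested.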

How the data were processed

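Per-gene FPKM of each library were deposited by the authors, as was a comparison table of 17686 genes with DESeq2 group means (a normalized count signal), fold changes as a ratio and as log2, and p-values and q-values, per the file headers. The kit marks strand, per the labels' protocols. The submitters' processing notes list GATK 4.0.11.0, DESeq2 1.22.1, Cufflinks, featureCounts 1.6.2, HISAT2 2.1.0, StringTie 1.3.4d, fastp 0.19.3 and mm10, with no role or order.

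Whole reads, and from them depths and implied transcript lengths, were recovered from FPKM and group means (100.0% of values up to 1000 reads whole within 0.05). Genotype was tested with limma 3.58.1 in R 4.3.3, with a trended prior, on log2(FPKM + 1), with Benjamini-Hochberg adjustment over 10806 genes. The procedure was tested on simulated data. A loess (span 0.3) on log2 length gave each library's length trend. Positions are RefSeq GRCm38.p6, where all 88 members matched by gene ID. Sequences were not used here.

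The members, classes and lists were chosen with earlier results of these data known. Named are every inducible member, every called member, a set of main chaperones, up to 6 members per other class and up to 3 genes per partner list by smallest p. Same-numbered libraries did not deviate together, which does not exclude pairing. Numbers were not treated as pairs in the main fit, and a replicate block was run as an alternative. Ratios and figures used Python 3.11.15, numpy 2.4.6, scipy 1.17.1, pandas 2.3.3 and matplotlib 3.10.9. The summed level of 1 marker list is not reported here.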

Additional observations from a re-analysis of the deposited data

How the results depend on the processing

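Of the 27 called members, 4 kept their call in every alternative in which they were tested, all of them lower (Hspa1a, Hspa1b, Dnajc3 and Dnajc16, the last tested in 13 of 14). Among members the main counts were 11 higher and 16 lower, and among all tested genes 1982 and 2790. With the length trend removed they were 2 and 7 among members and 1000 and 1018 among all genes, and without an expression filter 6 and 9 among members. Leaving out 1 library at a time gave 7 to 13 higher and 10 to 19 lower members (7 and 10 without KO replicate 4), 1411 to 1998 higher and 1981 to 2681 lower genes, and a KO minus WT difference of Ccl28 between -0.118 and -0.0793 FPKM. With the length trend removed the log2 fold changes of Dnajc1 (0.008), Hspb1 (-0.19) and Hspe1 (-0.13) reversed sign, without a call. The cause was not tested. Replicate numbers were checked as pairs, and the correlation of same-numbered libraries' deviations from their group mean was -0.195, -0.349 and -0.222. The other pairs of a KO and a WT library had 0.002 to 0.199. Deviations of 3 libraries from their own mean sum to 0, so these values cannot settle whether equal numbers mark pairs. The replicate block gave 10 higher and 12 lower members, and 1542 higher and 2207 lower genes. Among the 47 tested members without a call the 95% confidence intervals had a median half-width of 0.217, and their extreme limits were -0.71 and 0.68. Differences of about that half-width could thus be missed with 3 libraries a group, although Cct4 was called at a log2 fold change of 0.21. The intervals are not adjusted for the number of genes tested, so larger differences could be missed too. Hsph1, for example, had no call at a log2 fold change of -0.39 (adjusted p = 0.0554 in limma).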
